A study of Mus musculus with 6 samples.

Results

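The aminoacyl tRNA synthetases were followed through an RNA immunoprecipitation of the RNA-binding protein hnRNPK. These enzymes join each amino acid to its transfer RNA, the step that fixes the genetic code before the ribosome reads it. The genes were taken from a list of synthetase symbols, matched to the Ensembl identifiers of the count tables, and all 37 listed genes were found among 53379 genes in the tables. Of them, 21 encode cytosolic and 16 encode mitochondrial enzymes. Mars1 is named Mars in GENCODE M21, and newer nomenclature adds a 1 to many of the other cytosolic symbols.

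All 6 libraries came from Min6 at passage 31, a mouse insulinoma line raised from insulin-producing beta cells, and all cells had received 25 mM glucose with 500 µM palmitic acid over 30 h, a condition the labels name glucolipotoxicity. The first group was RNA recovered on beads with an antibody to hnRNPK from lysate with 200 µg of protein (n = 3), and the second was RNA of the same kind of lysate, taken as 10% input (n = 3). Untreated cells and a control antibody were not analysed here, so RNA held by the beads without hnRNPK cannot be told apart from bound RNA. The line carried its defining markers, with 10471 ± 2728 CPM (reads of a gene scaled to library size, the usual normalised count) of the insulin mRNA Ins2 in total RNA (SD, n = 3), and 323 ± 9.76 of the beta cell transcription factor Pdx1. Of other islet hormones, the alpha cell marker Gcg had 151 ± 17.3 CPM, Ppy 2.14, Sst 0.292 and Ghrl 0.152 on average. Of 5 exocrine and duct markers, Cpa1, Prss2 and Amy2b had 0 reads in every library, and Cela1 and Krt19 averaged 0.135 and 0.364 CPM in total RNA.

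Libraries held 38764925 to 52735957 counts. CPM were scaled with TMM factors, log2 fold changes are IP minus total RNA ± SE, and a gene was called where its Benjamini-Hochberg adjusted p over all genes was under 0.05 in edgeR's quasi-likelihood test. No sample label states whether replicates were separate cultures, so the p-values cover no more than the variation among these 6 libraries and that variation may be technical. The labels name no added RNA of known amount, so every difference is relative to the other genes of the library.

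Synthetases fall into a pair of unrelated structural classes, I and II. Cytosolic and mitochondrial enzymes are mostly products of separate nuclear genes, but the glycine gene Gars and the lysine gene Kars each supply both compartments. Several cytosolic synthetases form the multisynthetase complex together with the scaffold proteins Aimp1, Aimp2 and Eef1e1. In secretory cells the kinases that sense amino acid shortage and endoplasmic reticulum stress act through the transcription factor Atf4, which raises many cytosolic synthetase genes.

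Synthetase mRNAs were mostly less abundant in the IP than in total RNA. Every one of the 37 genes passed the filter on low counts, and 30 were depleted, 2 were enriched and 5 did not pass the test. The depleted share was 81.1% and the enriched share 5.41%. Over all 16929 genes tested, 33.6% were depleted and 28.9% enriched, and the median log2 fold change was −0.07, beside −1.18 for the synthetases. The libraries of the groups did not overlap for 34 synthetase genes, against 71.4% of all genes tested. Summed over the 37 genes, the level was 2266, 2118 and 2410.1 CPM in IP libraries 1, 2 and 3 and 4837, 4176 and 4522 CPM in total RNA libraries 1, 2 and 3. Each IP library therefore lay below each total RNA library in this sum. Lars2, which varied widely, gave 1035, 250.5 and 611 CPM of the total RNA sums. The cytosolic genes, without Lars2, summed to 2027, 1799 and 2187 CPM in the IP and 3560, 3665 and 3654 CPM in total RNA.

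Depletion was the most frequent outcome in both compartments. Of 21 cytosolic genes, 18 were depleted, 1 was enriched and 2 did not pass, with a median log2 fold change of −1.42 and a range of −2.27 to 0.50. Among the 16 mitochondrial genes, 12 were depleted, 1 was enriched and 3 did not pass, with a median of −1.14 and a range of −2.39 to 1.04. The sole enriched gene of each compartment charges tryptophan, Wars in the cytosol and Wars2 in mitochondria. No test was made of the difference between the compartments. Mitochondrial genes also varied more between IP libraries, since the median coefficient of variation of CPM was 24.0% for them and 11.4% for cytosolic genes. The fewest reads behind any value were 46 in 1 IP library for a mitochondrial gene and 198 for a cytosolic gene.

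**Figure D1:**
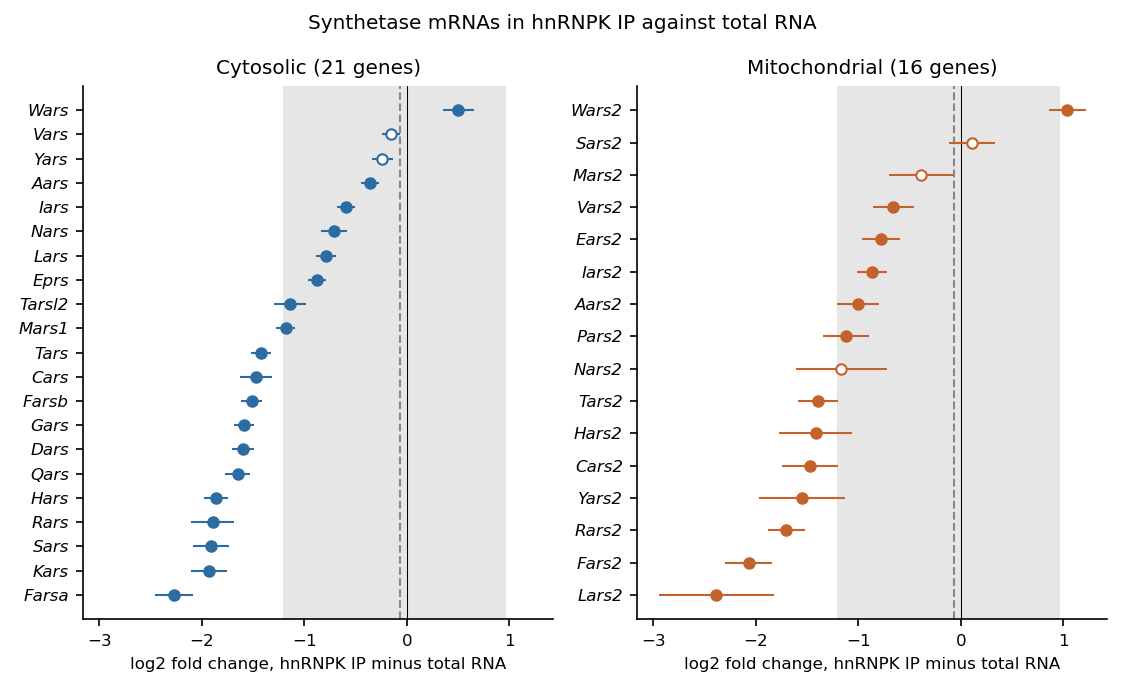
Log2 fold change of each synthetase mRNA, hnRNPK IP minus total RNA (points, with SE bars), for cytosolic and mitochondrial enzymes; filled points were called by edgeR and open points were not. The dashed line and grey band are the median and the middle quartiles of all 16929 genes tested, and only Wars and Wars2 are filled to the right of 0.

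Since hnRNPK binds C-rich single-stranded RNA, the most C-rich stretch of 30 nt within 1 exon is shown for 3 pairs of enzymes, each pair serving 1 amino acid. These are the enriched tryptophan pair, the strongly depleted phenylalanine pair and the serine pair, whose members parted. Sequences are from GENCODE M21 transcripts (GRCm38), 5′ to 3′ along the mRNA, and capitals mark runs of at least 3 C.
Wars: CCCtgctgcactcgaccttcttCCCtgCCC
Wars2: cctccactccatcactgtCCCCCaagaCCC
Farsa: gccagctcactCCCCCtgcctctCCCaCCC
Fars2: ccgcgctCCCCagCCCtgCCCCtgCCCggc
Sars: gccgagaaccactcctcaCCCtgtCCCatc
Sars2: tcctcgtgCCCgccgctctccagCCCtacc
The stretches of Wars (chr12:108866099-108866128, minus strand), Wars2 (chr3:99187615-99187644, plus strand) and Sars2 (chr7:28753441-28753470, plus strand) lie in coding sequence. Those of Farsa (chr8:84869084-84869113, plus strand) and Sars (chr3:108426740-108426769, minus strand) lie in the 3′ UTR, and that of Fars2 (chr13:36117632-36117661, plus strand) in the 5′ UTR. The depleted Farsa and Fars2 have 19 C of 30 in these stretches, more than the enriched Wars with 16 and Wars2 with 17. Sars has 15 and Sars2 17. Farsb, the other subunit of the cytosolic phenylalanine enzyme, is not shown. It was also depleted and has 13, a number that 98.5% of tested protein-coding mRNAs reach. Stretches with at least 19 C occur in 31.95% of tested protein-coding mRNAs, with at least 17 in 61.9% and with at least 16 in 77.2%. All these shares and the correlations below count any 30 nt of the spliced mRNA, exon junctions included. The genes named here have the same number of C by that measure. Over all 37 synthetase genes the Spearman correlation of log2 fold change with the highest number of C in 30 nt was 0.30, and over all tested protein-coding genes 0.42, so the order within these 6 genes is not that of the whole. A match describes the sequence and is not a mapped binding site.

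Wars2, the mitochondrial tryptophan enzyme (ENSMUSG00000004233.14, chromosome 3, 99141068 to 99239186), had 17.2, 22.1 and 15.5 CPM in IP libraries 1, 2 and 3 and 8.74, 9.31 and 8.59 CPM in total RNA libraries 1, 2 and 3. All IP values lay above all total RNA values, and the mRNA was 2.06-fold higher in the IP (log2 fold change 1.04 ± 0.18, edgeR adjusted p = 0.00119). Wars, its cytosolic counterpart and a gene known for induction by interferon (ENSMUSG00000021266.16, chromosome 12, 108860030 to 108894174), had 313, 217 and 327 CPM in the IP and 191, 209 and 205 CPM in total RNA. IP library 2 was close to the total RNA libraries, and the other IP libraries were clearly above them. The log2 fold change of Wars was 0.50 ± 0.15 (edgeR adjusted p = 0.0211), a 1.42-fold higher level in the IP. Wars lost its call with library totals in place of TMM factors, at 0.07, and without IP replicate 1 (0.41), IP replicate 3 (0.34) or total RNA replicate 1 (0.50), whereas Wars2 kept its call in every alternative run (adjusted p 1.14e-07 to 0.0166, DESeq2 and limma-voom included). Wars2 has a 3′ UTR of 3296 nt and Wars one of 278 nt.

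After Wars, the highest values among called cytosolic genes were those of Aars, Iars and Nars. The alanine enzyme Aars had 339, 303 and 350.2 CPM in the IP and 429.9, 432 and 411 CPM in total RNA, so the groups did not overlap although its log2 fold change was only −0.36 ± 0.08 (edgeR adjusted p = 0.00626). Of its exon sequence, 14.3% overlaps Exosc6 on the same strand, so its reads may include those of that gene. The isoleucine enzyme Iars had 55.6, 60.8 and 54.5 CPM in the IP and 81.6, 88.1 and 87.8 CPM in total RNA, a log2 fold change of −0.59 ± 0.09. The asparagine enzyme Nars had 122, 95.7 and 132 CPM in the IP against 183, 198 and 191 CPM in total RNA (−0.71 ± 0.13). For both genes every IP library was below every total RNA library. The valine enzyme Vars (271 ± 23.4 CPM in IP libraries and 301 ± 1.11 in total RNA, each ± SD over 3 libraries) and the tyrosine enzyme Yars (133 ± 13.5 CPM in IP libraries and 156 ± 9.04 in total RNA) did not pass, with log2 fold changes of −0.15 ± 0.09 (edgeR adjusted p = 0.173) and −0.24 ± 0.10 (edgeR adjusted p = 0.0735). Both were called depleted with library totals alone, at −0.58 and −0.67, and with an offset for gene length, at −0.29 and −0.42, and Yars also without IP replicate 3, at −0.38.

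Farsa, the catalytic subunit of the cytosolic phenylalanine enzyme, had the lowest value of the cytosolic genes. It had 6.62, 6.01 and 9.38 CPM in the IP and 33.9, 35.7 and 36.9 CPM in total RNA, 4.83-fold lower in the IP (log2 fold change −2.27 ± 0.19, edgeR adjusted p = 2.37e-05). The other subunit of the same enzyme, Farsb, had 20.0 ± 1.30 CPM in IP libraries and 57.2 ± 2.60 in total RNA (SD over 3 libraries each) and a log2 fold change of −1.51 ± 0.10. The subunits thus both fell, by 4.83 and 2.86 times, and the difference between them was not tested. Kars, the lysine enzyme of both compartments, had 37.4, 36.8 and 57.1 CPM in the IP and 167, 161 and 174 CPM in total RNA (−1.93 ± 0.18, edgeR adjusted p = 3.84e-05). Sars, the serine enzyme, had 81.0, 70.4 and 113 CPM against 302, 344 and 346 CPM (−1.91 ± 0.18), and the arginine enzyme Rars had 24.7, 13.4 and 22.1 CPM against 75.4, 75.6 and 73.2 CPM (−1.90 ± 0.21). In each of these genes the highest IP library stayed under the lowest total RNA library by a wide margin.

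Gars, the glycine enzyme of both compartments, had the highest level per length of all synthetase mRNAs in total RNA. It had 197, 195 and 238 CPM in the IP and 623, 631 and 639 CPM in total RNA, 3.01-fold lower in the IP (−1.59 ± 0.10, edgeR adjusted p = 6.05e-06). Eprs, which joins the glutamate and proline activities in 1 protein, had 126, 146 and 136 CPM in the IP and 257, 244 and 248 CPM in total RNA (−0.88 ± 0.09, edgeR adjusted p = 5.46e-05). Neither gene had overlapping groups. The remaining cytosolic genes were all depleted, with log2 fold changes of −0.79 for the leucine enzyme Lars, −1.14 for the second threonine enzyme Tarsl2, −1.18 for the methionine enzyme Mars1 and −1.42 for the first threonine enzyme Tars. Lower still were the cysteine enzyme Cars (−1.47), the aspartate enzyme Dars (−1.60), the glutamine enzyme Qars (−1.65) and the histidine enzyme Hars (−1.86).

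**Figure D2:**
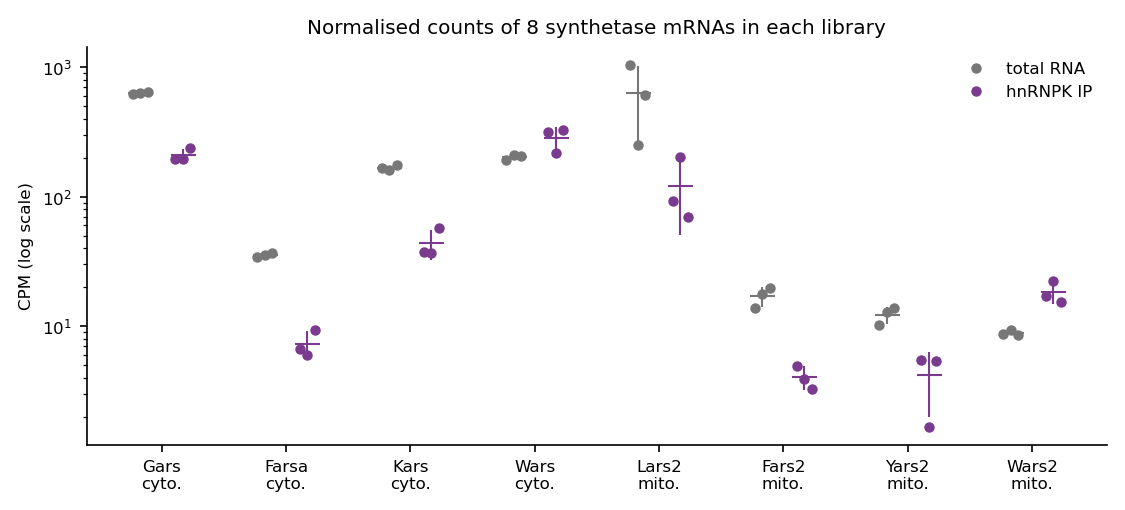
Normalised counts (CPM, log axis) of 4 cytosolic (cyto.) and 4 mitochondrial (mito.) synthetase mRNAs in the 3 total RNA (grey) and 3 hnRNPK IP (purple) libraries, with mean and SD. Gars and Farsa sit far lower in the IP, Wars and Wars2 higher, and Lars2 spreads from 250.5 to 1035 CPM within total RNA.

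All 8 synthetases of the multisynthetase complex (Eprs, Lars, Iars, Mars1, Qars, Rars, Kars and Dars) were depleted, with a median of −1.39, and their summed level was 419 ± 14.2 CPM in the IP while total RNA had 944 ± 8.51 (SD, n = 3 each). Among the 13 cytosolic synthetases outside the complex, 10 were depleted, 1 was enriched and 2 did not pass, with a median of −1.42. By structural class, 13 of 18 class I genes were depleted (median −0.83) and 16 of 18 class II genes (median −1.42), with Eprs holding domains of both. Over all genes tested, 33.6% were depleted, and differences between these groups of synthetases were not tested. Both enriched genes, the tryptophan enzymes Wars and Wars2, belong to class I.

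Among mitochondrial synthetases, Lars2 had the lowest fold change and the widest spread between libraries. Lars2, which charges leucine in mitochondria, had 92.2, 201 and 69.8 CPM in the IP and 1035, 250.5 and 611 CPM in total RNA, a log2 fold change of −2.39 ± 0.56 (edgeR adjusted p = 0.00644). The groups did not overlap, but total RNA library 2 was much nearer to IP library 2 than to total RNA library 1. Without total RNA replicate 1 its log2 fold change was −1.80, and without IP replicate 2 it was −2.97. Gm42418, a noncoding gene in a ribosomal RNA repeat that was looked at after the values of Lars2 were seen, had 722, 1149 and 396 CPM in the IP and 467, 248 and 468 CPM in total RNA. Within the IP group both genes were highest in library 2 and lowest in library 3, and within total RNA both were lowest in library 2; any part of ribosomal RNA in the Lars2 counts was not tested. Leaving Lars2 out, the other 15 mitochondrial genes summed to 139 ± 18.8 CPM in IP libraries and 253 ± 9.68 in total RNA (SD over the libraries of a group, n = 3), and their median log2 fold change was −1.12.

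Fars2, the mitochondrial phenylalanine enzyme, had 4.96, 3.94 and 3.29 CPM in the IP and 13.8, 17.6 and 19.8 CPM in total RNA, 4.20-fold lower (−2.07 ± 0.23, edgeR adjusted p = 1.08e-04). The arginine enzyme Rars2 had 6.03, 4.94 and 6.93 CPM against 18.2, 19.9 and 20.2 CPM (−1.70 ± 0.18). For both genes each total RNA library was far above each IP library. The tyrosine enzyme Yars2 had 5.52, 1.67 and 5.34 CPM against 10.2, 12.9 and 13.8 CPM (−1.55 ± 0.42), with IP library 2 far under the other IP libraries. At the upper end of the depleted genes, Vars2 for valine had 16.0, 10.9 and 17.96 CPM in the IP and 22.2, 25.8 and 22.7 CPM in total RNA (−0.66 ± 0.20, edgeR adjusted p = 0.0206). Its call ended without IP replicate 1 or without any 1 of the total RNA replicates, at −0.72, −0.66, −0.55 and −0.65. Ears2, which charges glutamate, had 4.93, 5.22 and 6.11 CPM against 9.30, 9.52 and 9.10 CPM (−0.78 ± 0.18), and the isoleucine enzyme Iars2 had 23.5, 16.7 and 21.2 CPM against 37.4, 36.2 and 38.1 CPM (−0.86 ± 0.15). Of the exon sequence of Iars2, 22.9% overlaps Rab3gap2 on the opposite strand, and with no known strand setting reads of that part cannot be assigned to either. The same limit holds for 8.72% of the exon sequence of Fars2 (with Nrn1) and 8.52% of that of Vars2 (with Gm20483).

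The other depleted mitochondrial genes were Aars2 for alanine (−1.004), Pars2 for proline (−1.12), Tars2 for threonine (−1.39), Hars2 for histidine (−1.42) and Cars2 for cysteine (−1.47). Genes that did not pass were Nars2 for asparagine, Mars2 for methionine and Sars2 for serine. Nars2 had 5.85, 1.395 and 3.67 CPM in the IP and 8.24, 8.44 and 7.82 CPM in total RNA, without overlap, and a log2 fold change of −1.17 ± 0.45 (edgeR adjusted p = 0.0518). It was called depleted in 9 of 14 alternatives, among them DESeq2 and limma-voom, with values from −1.69 to −0.79. Mars2 had 4.46, 10.4 and 8.73 CPM against 11.7, 10.6 and 8.53 CPM (−0.39 ± 0.31, edgeR adjusted p = 0.320), and IP libraries 2 and 3 fell within the range of total RNA. Sars2 had 19.0, 13.1 and 22.6 CPM in the IP and 13.8, 17.9 and 18.9 CPM in total RNA, with overlapping groups and a log2 fold change of 0.11 ± 0.23 (edgeR adjusted p = 0.692) that turned to −0.32 with library totals alone and to −0.13 without IP replicate 3.

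Pairs of enzymes that charge the same amino acid in the cytosol and in mitochondria were set side by side within each library, which removes the scaling between libraries. In 17 such pairs, both mRNAs were depleted in 11, both were enriched in 1 and none had opposite calls; Eprs and Fars2 each enter 2 pairs. The mitochondrial mRNA had the higher log2 fold change in 9 pairs and the lower in 8. The cysteine pair, counted among the 9, had nearly equal values, at −1.47 for Cars and −1.47 for Cars2. Without IP replicate 3 the mitochondrial mRNA was higher in 7 pairs, and in the other alternatives in 8 or 9.

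The serine pair parted most. The log2 ratio of Sars2 to Sars was −2.09, −2.42 and −2.32 in IP libraries 1, 2 and 3 and −4.44, −4.26 and −4.19 in total RNA libraries 1, 2 and 3. The ratio was higher in each IP library than in any total RNA library, and the log2 fold changes of the mRNAs differed by 2.02. These mRNAs are almost the same length, 1866 nt for Sars and 1868 nt for Sars2, with 3.75 and 8.03 CCCC matches per kb and the C-rich stretches printed above.

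The tyrosine pair went the other way. The log2 ratio of Yars2 to Yars was −4.54, −6.15 and −4.78 in the IP and −3.84, −3.66 and −3.53 in total RNA, so every IP library was lower. Ratios were also lower in every IP library for Aars2 to Aars, Vars2 to Vars and Fars2 to Farsb, with differences in log2 fold change of −0.64, −0.51 and −0.56. In these pairs too, as in the serine pair, the mitochondrial mRNA had more CCCC matches per kb. The densities were 6.35 in Yars2 and 3.09 in Yars, 5.37 in Aars2 and 4.00 in Aars. They were 11.07 in Vars2 and 8.70 in Vars, and 4.71 in Fars2 and 0.98 in Farsb. The ratio of Wars2 to Wars was higher in each IP library, by 0.54 in log2 fold change, with 2.95 and 3.84 CCCC matches per kb. A relation of CCCC density to these ratios was not tested. In the remaining 11 pairs the libraries overlapped, Lars2 to Lars included, where the difference was −1.60. The differences of single pairs were not tested.

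**Figure D3:**
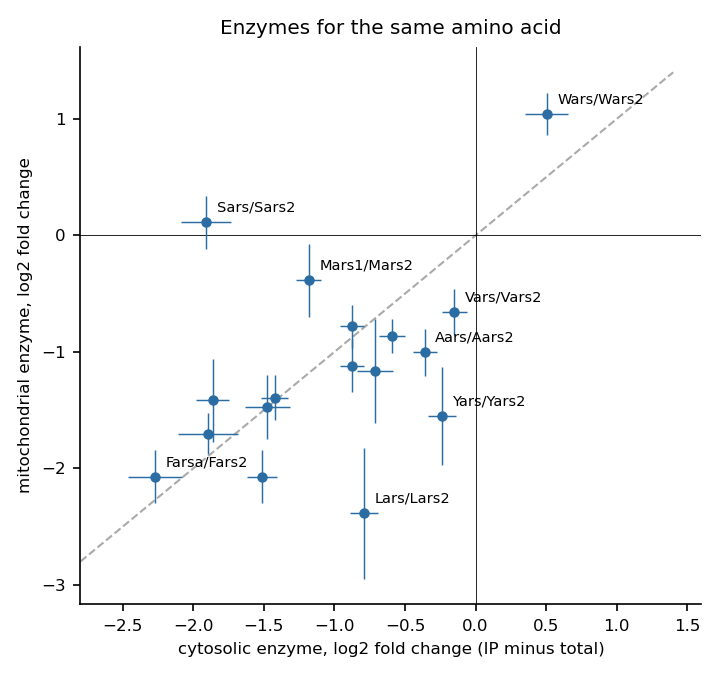
Log2 fold change (IP minus total RNA, with SE bars) of the mitochondrial enzyme against that of the cytosolic enzyme for the same amino acid; the dashed line marks equal values and 8 pairs are named. Wars/Wars2 is the sole pair with both values above 0, and Sars/Sars2 lies farthest above the line.

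In total RNA, cytosolic synthetase mRNAs were more abundant per length than mitochondrial ones. The median level was 23.2 CPM per kb of exon for cytosolic genes, with a range of 6.73 to 202, and 3.58 for mitochondrial genes, with a range of 0.910 to 57.0. Exon length here is that of all annotated exons of a gene merged, as 5142 nt for Sars, 3447 nt for Wars and 3119 nt for Gars. The mRNA lengths given elsewhere are 1866, 1824 and 2380 nt for these genes. The gaps between genes below therefore depend on the length used. Gars led at 202 ± 2.46 CPM per kb (SD, n = 3), followed at a distance by Sars (64.4 ± 4.87) and Wars (58.5 ± 2.84), which differed by little more than their SDs. Lars2 came next at 57.0 ± 35.4, a spread that covers the values of many other synthetases. Tarsl2 was the lowest cytosolic gene, at 6.73 ± 0.287 CPM per kb, near the mitochondrial Rars2 (7.02 ± 0.382). The lowest levels were those of Mars2 (0.910 ± 0.144) and Nars2 (1.17 ± 0.0459). In the IP, Wars had the highest level per length, 82.9 CPM per kb on average, ahead of Gars at 67.3.

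Lengths and C-rich motifs of the mRNAs were described by medians, without a test. The median 3′ UTR of cytosolic synthetases was 253 nt, against 558 nt for mitochondrial enzymes and 961 nt for 13476 tested protein-coding genes. Coding sequences had a median of 2169 nt in cytosolic, 1616 nt in mitochondrial and 1404 nt in all tested genes, and whole mRNAs 2800.0, 3191 and 2998 nt. The motif CCCC, searched on the sense strand with overlapping matches counted, had a median density of 2.74 per kb in cytosolic, 4.41 per kb in mitochondrial and 4.39 per kb in all tested mRNAs. For TCCC, which can overlap CCCC, the medians were 3.62, 4.57 and 4.54 per kb. At least 1 CCCC was present in each of the 37 synthetase mRNAs and in 98.2% of all tested mRNAs.

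Across the 37 genes, which are not independent replicates and share these libraries, log2 fold change was higher in longer mRNAs (Spearman correlation 0.47, beside 0.48 over all tested protein-coding genes). The Spearman correlation with 3′ UTR length was 0.41 (all genes 0.44), with CCCC density 0.21 (all genes 0.30) and with GC content 0.11 (all genes −0.01). Wars, at 1824 nt, and Sars2 stood above other short synthetase mRNAs, while Farsa, at 1826 nt, had nearly the length of Wars. With an offset that removes the trend of fold change on gene length over all genes, the medians were −1.396 for cytosolic and −1.29 for mitochondrial synthetases, beside −0.02 for all genes tested. In that fit 20 cytosolic and 14 mitochondrial genes were depleted. Gene length in the offset is that of all annotated exons merged and not the mRNA length above, for Eprs 18102 against 4906 nt. No offset for mRNA length was run.

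**Figure D4:**
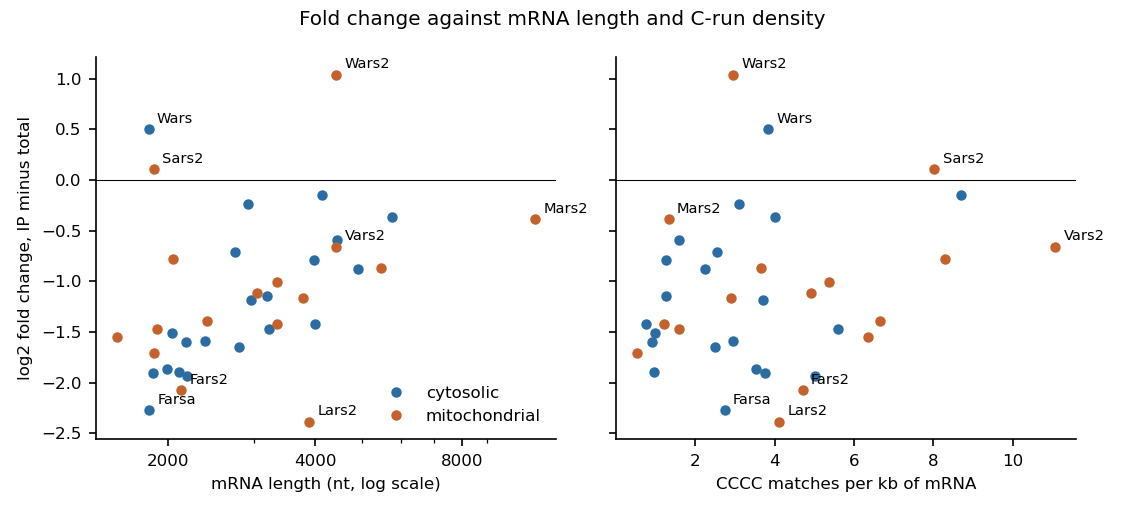
Log2 fold change (IP minus total RNA) of each synthetase against mRNA length (left, log axis) and CCCC matches per kb (right), for cytosolic (blue) and mitochondrial (orange) enzymes with 8 genes named. Longer mRNAs have higher values, and Wars, Farsa and Sars2 differ widely in fold change at nearly the same length.

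Genes that work beside the synthetases were read from the same fit. A list of the complex scaffolds Aimp1, Aimp2 and Eef1e1 and of Eef1b2, Eef1d and Eef1g, which recycle the elongation factor eEF1A that carries charged tRNA, was depleted throughout (6 of 6, median −2.68). Over all genes tested, 33.6% were depleted. Eef1b2 was lowest, with 14.7 ± 6.27 CPM in IP libraries and 310.3 ± 38.4 in total RNA (SD over 3 libraries each, log2 fold change −4.39 ± 0.31), and the scaffold Aimp2 highest (−0.96 ± 0.36, edgeR adjusted p = 0.0471). The call of Aimp2 ended with the offset for gene length (−0.22), with DESeq2 size factors (−0.92) and without IP replicate 3 or any 1 total RNA replicate (−0.97 to −0.86). Aimp1 had −3.42 ± 0.42 and Eef1e1 −2.52 ± 0.25. Of the enzymes that clear mischarged tRNA, 3 of 3 tested were depleted (all genes 33.6%), from Prorsd1 (−2.41 ± 0.19) to Dtd2 (−0.65 ± 0.23). Aarsd1 did not pass the filter on low counts. The call of Dtd2 also ended with the length offset (−0.39), with DESeq2 size factors (−0.61), with a replicate block (−0.68) and without any 1 total RNA replicate (−0.71 to −0.57).

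Of 17 genes for maturation and charging of mitochondrial tRNA, 13 were depleted and 2 enriched, with a median of −1.15. These are shares of 76.5% and 11.8%, beside 33.6% and 28.9% of all genes tested. The lowest was Trmu, which thiolates tRNA (−2.58 ± 0.47), and the highest was Nsun3, which methylates the methionine tRNA (1.33 ± 0.15). Mitochondria lack a glutamine enzyme of their own and convert glutamate, charged by Ears2, on the tRNA with a complex of Qrsl1, Gatb and Gatc. Its subunits parted, with 81.4 ± 7.70 CPM in IP libraries and 33.1 ± 3.45 in total RNA for Gatc (1.30 ± 0.12, edgeR adjusted p = 3.95e-05), against −1.12 ± 0.19 for Gatb and −1.93 ± 0.58 for Qrsl1. Without total RNA replicate 2 or 3 Qrsl1 was not called, at −1.70 and −1.89. In the pathway of selenocysteine, which is made on its tRNA after serine is attached, 3 of 5 genes were depleted, with Pstk lowest (−2.57 ± 0.37). The elongation factor Eefsec was enriched (0.99 ± 0.14). This list is too small to be set apart from the shares of all genes.

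The sensor of uncharged tRNA, Gcn2 (gene Eif2ak4), and the amino acid response genes had calls in both directions, as all genes did: 5 of 15 were enriched, 9 were depleted (all genes 28.9% and 33.6%; this list 33.3% and 60.0%) and the median was −0.76. The amino acid transporter Slc7a5 was highest, with 2555 ± 243 CPM in IP libraries and 459 ± 29.7 in total RNA (SD over 3 libraries each, 2.48 ± 0.10, edgeR adjusted p = 1.38e-06), while its partner chain Slc3a2 was depleted (−1.23 ± 0.19). Ddit3, a transcription factor of the stress response, was lowest (−1.97 ± 0.28). Atf4 itself had −0.76 ± 0.17, Eif2ak4 −0.64 ± 0.16 and the asparagine synthetase Asns, which makes the amino acid that Nars charges, −1.87 ± 0.09. The call of Atf4 ended with the offset for gene length, at −0.30, and that of Eif2ak4 without total RNA replicate 2, at −0.55.

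**Figure D5:**
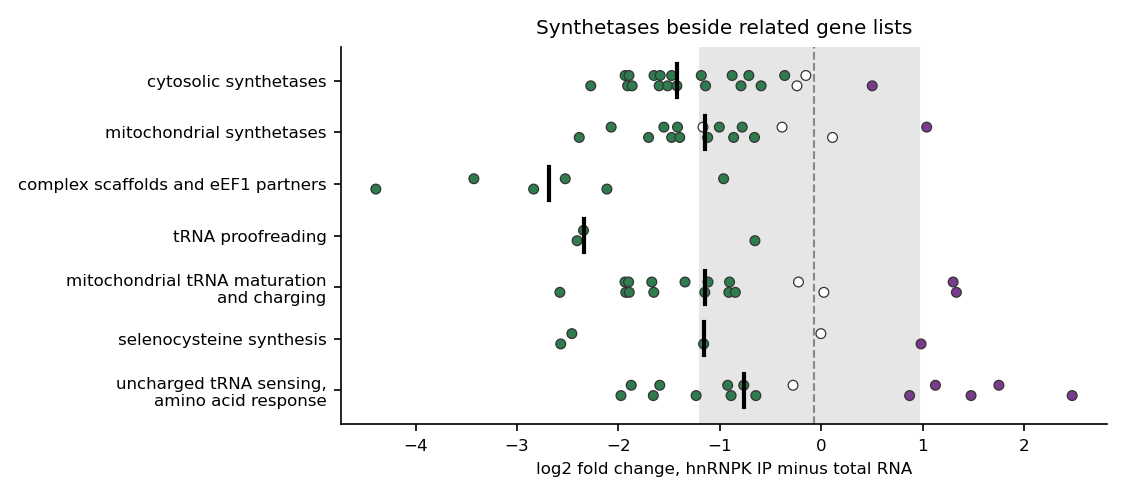
Log2 fold change (IP minus total RNA) of synthetases and of 5 related gene lists, with each point a gene (green depleted, purple enriched, white not called) and black bars the medians; the dashed line and grey band are the median and middle quartiles of all genes tested. The scaffolds and eEF1 partners lie lowest and the amino acid response genes spread on both sides of 0.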

How the data were processed

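The deposited tables give, for 1 library each, a whole count of reads for every gene, as the authors deposited them and not normalized. TopHat2, mm10 and featureCounts were used, per the submitters' processing notes; tool versions, gene annotation, strandedness and treatment of multiply aligned reads were not given in the sources used here. Of 53379 identifiers, 53274 matched GENCODE M21 (GRCm38), which gave symbols, exons and transcripts. Library pairs within a group differed beyond sampling noise (chi-square over degrees of freedom 6.40 to 123).

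Counts of all genes were fitted in R 4.3.3 with edgeR 4.0.16 (filterByExpr with minimum count 10 and minimum total 15, TMM, glmQLFit and glmQLFTest on the group) and adjusted over 16929 tested genes; the threshold was 0.05. Each gene was described by its annotated transcript with the longest coding sequence. Exons of 7 synthetase genes overlap another gene by 5% or more (Aars, Cars2, Farsb, Fars2, Iars2, Vars2 and Hars, the last with its pair partner Hars2). These and Iars, 8 genes in all, have that share of 50-mers in another gene's transcripts. Without these 8 genes, 2 of 29 were enriched and 22 depleted.

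The genes and lists were chosen with earlier results of these data known. Per-library values were given for the 4 highest and 4 lowest called genes of each compartment, for Gars, Kars and Eprs and for pairs with opposite calls, of which there were none. Genes that did not pass were added after their values were seen, as were list members beyond the highest and lowest. Alternatives were DESeq2 1.42.0, limma-voom (3.58.1), other scaling, no filter, halved counts, a gene length offset, a replicate block and leaving out each library. The edgeR procedure was also run on simulated data in which few genes changed, equally up and down. Many genes were called in the data here, so that simulation does not test the scaling under such a shift.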

Additional observations from a re-analysis of the deposited data

How the results depend on the processing

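Over 14 alternatives, 30 of 37 synthetase genes kept their direction and their side of the threshold in each; the exceptions were Wars, Vars, Yars, Vars2, Nars2, Mars2 and Sars2. Library totals alone shifted the median of all genes by −0.43 (log2) and gave medians of −1.86 for cytosolic and −1.58 for mitochondrial genes. In that edgeR fit 0 cytosolic genes were enriched, and also 0 at an unadjusted p under 0.05. DESeq2 with its own size factors and limma-voom with TMM factors each called 1 cytosolic gene enriched. Neither was run on library totals. Leaving out 1 library gave 0 to 1 enriched and 18 to 19 depleted cytosolic genes with medians of −1.52 to −1.32, and 11 to 13 depleted mitochondrial genes with medians of −1.21 to −0.96. Mars2 was called depleted with the offset for gene length, at −0.96. Sars2 was −0.32 with library totals and −0.13 to 0.31 with 1 library left out. Among related genes that were not called, Mtfmt changed sign with library totals (−0.41), with no filter (−0.00650) and over −0.11 to 0.13 with 1 library left out. Sepsecs did so with DESeq2 size factors, DESeq2 and halved counts (0.0410, 0.0411 and 0.0323) and over −0.115 to 0.0554 with 1 left out. The causes of these changes were not tested.

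Pairing of the libraries by replicate number was not seen in the counts. The correlation of deviations from the group means was −0.0151, −0.204 and 0.291 for numbers 1, 2 and 3, and not every library correlated best with its own number. With 3 libraries in a group, these correlations cannot show whether libraries of the same number came from the same lysate. A replicate block gave 18 depleted and 1 enriched cytosolic genes and 13 depleted and 1 enriched mitochondrial genes. The fewest reads of a synthetase gene were 46, for Nars2 in IP library 2. With counts halved, 18 cytosolic and 13 mitochondrial genes were depleted, against 18 and 12 at full depth.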
